A study of Mus musculus with 8 samples.

Results

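The cholesterol and fatty acid synthesis genes are 31 genes of the mouse coding gene table that are tied to the sterol regulatory element binding proteins (SREBPs), chosen by name and matched to the table through their Ensembl gene IDs. All 31 were found among the 29844 genes of the table, and all 31 were among the 14059 genes that passed the filter on low counts. They were measured by RNA sequencing in primary cardiomyocytes cultured from E18.5 mouse embryos of the H2B-eGFP line B6.Cg-Tg(HIST1H2BB/EGFP)1Pa/J, whose transgene fuses a histone to a green fluorescent protein and is carried by every sample. Hearts were dissected and digested to single cells, and the cells were grown for 4 days in Advanced DMEM with fetal bovine serum, until confluent, having begun to beat. One group (4 libraries, soft 1 to 4) was plated on soft polydimethylsiloxane, a silicone rubber, of about 10 kPa, and the other (4 libraries, stiff 1 to 4) on stiff polydimethylsiloxane of about 150 kPa. The comparison asks how the stiffness of the substrate relates to the levels of these mRNAs. The labels name no sorting of cells, and nothing in them ties a library to a culture or litter of its own, so the p-values set the substrates against a spread among libraries that may be technical in part.

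Cells build cholesterol from acetyl-CoA through the mevalonate pathway, close the chain squalene into the first sterol, and trim that sterol through a series of oxidations and reductions. The SREBPs are transcription factors made as membrane proteins of the endoplasmic reticulum; when membrane sterol is low, the escort protein Scap carries them to the Golgi, where they are cut and released to the nucleus, and when sterol is high, Insig proteins hold Scap back. Srebf2 is known mainly for driving sterol synthesis and uptake, and Srebf1 for driving fatty acid synthesis, so the enzymes of a branch are often transcribed together. In adult heart muscle most energy comes from oxidising fatty acids, and these genes serve the making of membranes. The cells here were embryonic.

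Promoter letters are shown because many of the sterol enzymes varied together between libraries, as described below for the libraries numbered 4. They are given for Hmgcs1, Msmo1, Insig1 and Abca1, from the mevalonate, sterol, control and transport roles, and come from RefSeq (build GRCm38.p6); the last 3 were chosen after the values were seen. The table held entries for 24 of the 31 members, with no entry for Fdps, Fdft1, Sqle, Stard4, Npc1, Scd1 and Scd2. Each run is the 250 bases before the start site, 5′ to 3′; capitals mark matches on either strand to TCACNCCAC (a sterol regulatory element), CCAAT (the box bound by NF-Y) and GGGCGG (the GC box bound by Sp1). Hmgcs1 lies at chr13:119690101-119690350 on the plus strand, Msmo1 at chr8:64733579-64733828 on the minus strand, Insig1 at chr5:28071162-28071411 on the plus strand and Abca1 at chr4:53159896-53160145 on the minus strand. The Abca1 window precedes a start site inside the listed gene range, which ends at 53159988, and so overlaps that range. Windows of some other members, such as Fasn, also overlap the range of their gene.
Hmgcs1: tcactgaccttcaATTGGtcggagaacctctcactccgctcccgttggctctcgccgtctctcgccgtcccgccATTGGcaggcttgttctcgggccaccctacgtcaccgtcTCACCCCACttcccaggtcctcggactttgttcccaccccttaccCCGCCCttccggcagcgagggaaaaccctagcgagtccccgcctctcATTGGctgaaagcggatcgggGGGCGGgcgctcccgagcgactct
Msmo1: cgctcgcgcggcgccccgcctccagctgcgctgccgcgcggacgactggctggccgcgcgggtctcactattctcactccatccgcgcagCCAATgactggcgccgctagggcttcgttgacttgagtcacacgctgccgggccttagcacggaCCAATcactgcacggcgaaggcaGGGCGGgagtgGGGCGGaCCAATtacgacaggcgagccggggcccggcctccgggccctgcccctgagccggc
Insig1: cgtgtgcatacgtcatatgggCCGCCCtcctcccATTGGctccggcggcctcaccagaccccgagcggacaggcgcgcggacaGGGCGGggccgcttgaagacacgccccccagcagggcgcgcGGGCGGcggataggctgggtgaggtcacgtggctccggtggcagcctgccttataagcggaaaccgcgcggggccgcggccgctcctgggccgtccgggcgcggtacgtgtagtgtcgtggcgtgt
Abca1: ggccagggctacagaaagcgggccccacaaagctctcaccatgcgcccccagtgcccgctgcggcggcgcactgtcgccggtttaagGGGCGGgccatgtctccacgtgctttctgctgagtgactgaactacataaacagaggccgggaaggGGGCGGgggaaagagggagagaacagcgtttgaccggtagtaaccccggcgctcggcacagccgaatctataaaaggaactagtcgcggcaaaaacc
The Hmgcs1 window was the sole window of a member with a match to TCACNCCAC, at position -137 counted back from the start site; 1 of 32 member windows (3.12%) held it, against 1.05% of 32851 windows in the whole promoter table. No member window held the E-box palindrome TCACGTGA, which 0.785% of all windows held. CCAAT was found in 20 of 32 member windows (62.5%), against 33.8% of all windows, and GGGCGG in 24 of 32 (75%), against 32.7%. The promoter table was not limited to genes that passed the filter on low counts, as all 31 members did. The shares among expressed genes alone were not counted. In 36 windows of other genes of the pathway, listed apart from the members, CCAAT was found in 18 (50%) and GGGCGG in 15 (41.7%). In the 18 windows of mevalonate and sterol enzymes the counts were 14 for CCAAT (77.8%) and 15 for GGGCGG (83.3%), and the Abca1 window held 2 GC boxes and no CCAAT. The motifs do not overlap one another in the runs shown, some genes have several start sites and so several windows, and a match is a run of letters and not a measured binding site. Only fixed strings within 250 bases were sought, so a gene without a match can still have a site.

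**Figure D1:**
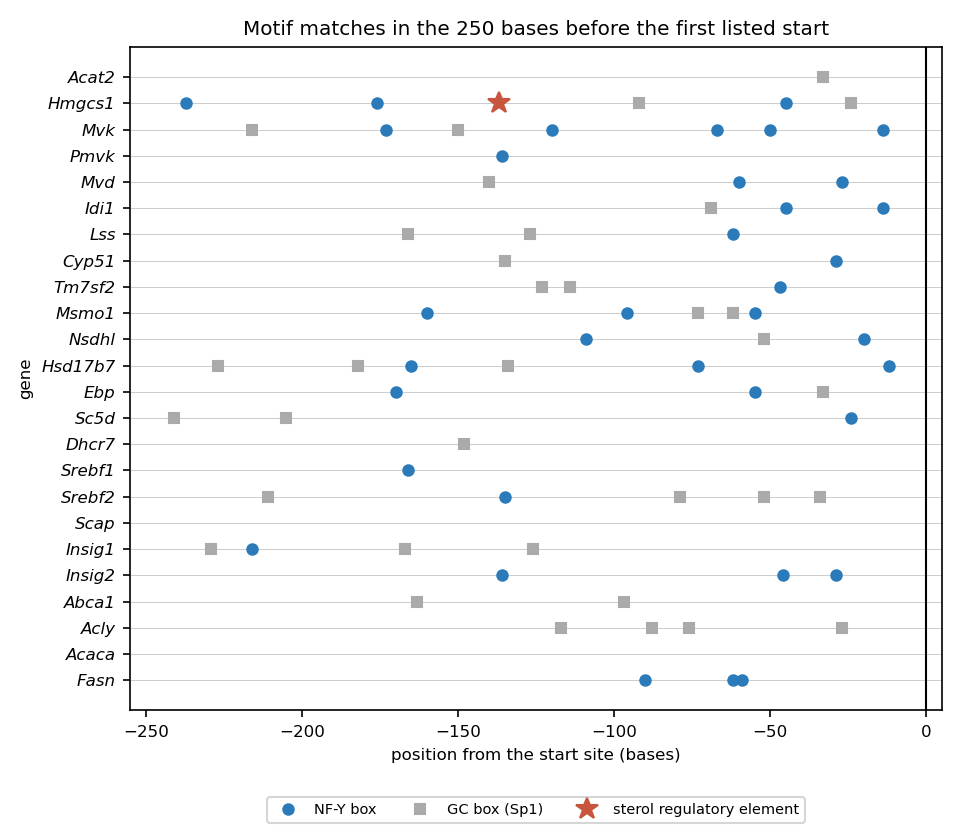
Matches to 3 motifs in the 250 bases before the first listed start site of 24 member genes (rows), by distance from the start in bases (horizontal axis). Circles are CCAAT boxes, squares GC boxes and the star the match to the sterol regulatory element string TCACNCCAC, seen for Hmgcs1 alone among these windows.

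Library totals ran from 27646471 to 34693673 counts, and the 31 genes together took from 101427 to 180205 counts per library. The labelled cell type was checked with 6 cardiomyocyte markers, which summed to between 19134 and 36216 CPM over soft libraries and between 20746 and 30318 CPM on stiff (CPM are counts relative to the TMM-scaled library total, the unit of all levels below). Transcripts of other cells were present too: 6 fibroblast markers summed to 6504 to 11271 CPM on soft and 5860 to 8975 CPM on stiff. Of 5 adipocyte markers, Adipoq, Plin1, Cidec and Lep were listed at 0 in all 8 libraries, and Fabp4, which endothelium also makes, stood between 0.7301 and 14.3 CPM. Of 4 hepatocyte markers 3 were listed at 0 throughout, and the sum of the 4 did not pass 0.117 CPM in any library. In such bulk samples, fewer cells of a type and less RNA per cell cannot be told apart.

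Between stiff and soft, 0 of the 31 genes rose and 0 fell. The enzymes of the mevalonate branch had the highest estimates on stiff, led by Pmvk at 0.53 (SE 0.32) on the scale of log2 fold change (stiff over soft, called the log2 change below), the controllers of the pathway had mostly estimates slightly below 0, and the fatty acid enzymes lay close to 0. Of the 31 estimates 19 were above 0 and 12 below, with a median log2 change of 0.07 and a range from -0.22 (Abca1) to 0.53 (Pmvk); over all 14059 genes tested, 6759 were above 0 and the median was -0.01. The test was edgeR's quasi-likelihood F test with substrate as its only term and Benjamini-Hochberg adjustment over all genes. It called 0% of the genes tested in either direction, and the edgeR adjusted p was 0.99997 for each of the 31. At an unadjusted p under 0.05 there were 0 members, against 130 of all genes (0.925%). With library number as a block there were 2, Acat2 and Hmgcs1 (6.45%, against 2.56% of all genes), each with an edgeR adjusted p of 1. DESeq2 and limma-voom called 0 members too, with and without the block. At an unadjusted p under 0.05 they had 0 members without the block, and with it 2 for DESeq2 (against 4.27% of all genes) and 3 for limma-voom (against 3.07%). The soft and stiff libraries overlapped for all 31 members, against 181 of all genes (1.29%) for which they did not. The median 95% interval of a member reached 0.58 to either side of its log2 change (0.60 over all genes), or about 1.5-fold. With the block it reached 0.35, or 1.27-fold (0.50 over all genes, or 1.41-fold). Differences smaller than these were mostly not detectable in the respective fit even before adjustment. A call after adjustment over 14059 genes needs more, so larger differences could be missed too. The median of the 31 moved with single libraries: it was 0.28 without soft 1, which was the top soft library for 20 of the 31, 0.23 without stiff 4 and -0.01 without stiff 3.

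**Figure D2:**
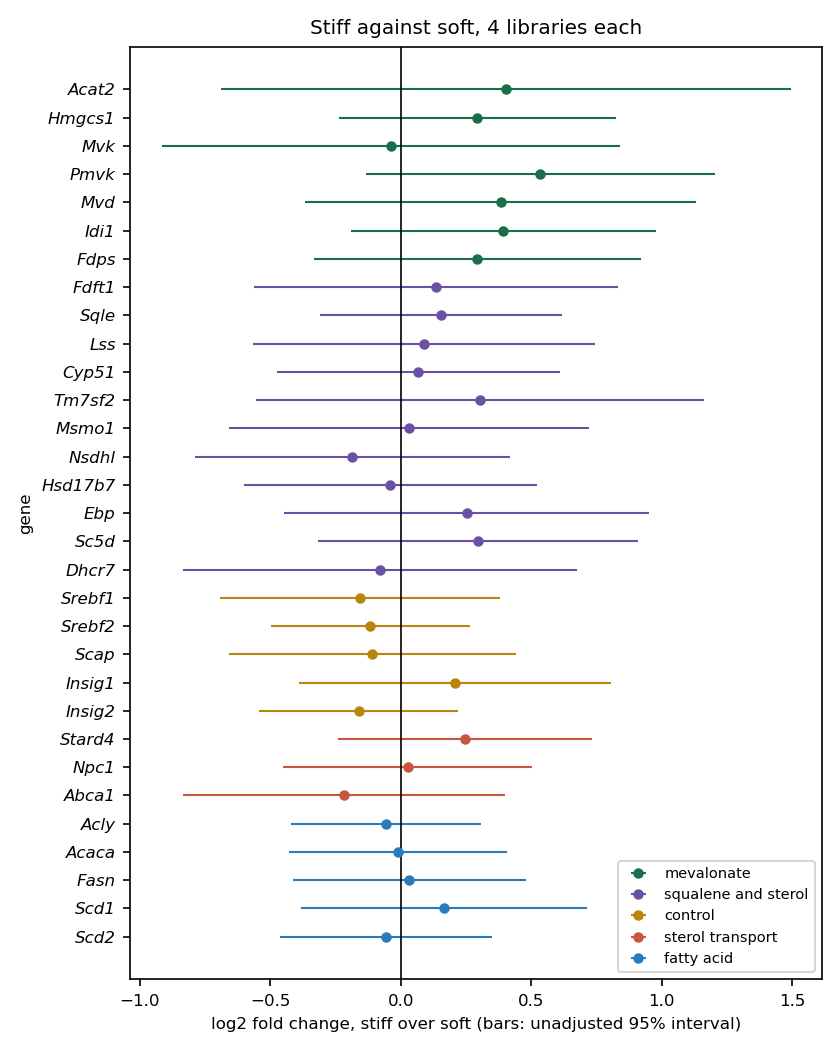
Log2 fold changes of the 31 genes, stiff over soft (horizontal axis), with unadjusted 95% intervals as bars, coloured by role, from 4 libraries per substrate. Each interval crosses 0, and the mevalonate enzymes other than Mvk lie to the right of 0.

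The first steps join acetyl-CoA units to mevalonate and turn it into the isoprenoid farnesyl diphosphate. Of the 7 genes of this branch, 6 had estimates above 0 and 0 passed the test, with a median log2 change of 0.38. Hmgcs1 (HMG-CoA synthase, ENSMUSG00000093930, chromosome 13 from 119690351 to 119708260) stood at 548, 408, 394 and 239.7 CPM in soft 1 to 4 and 513, 554, 585 and 296 CPM in stiff 1 to 4. Soft 4 and stiff 4 were the lowest libraries of their substrates, and the ranges of the substrates overlapped. The means were 397 ± 126 CPM over the soft libraries and 487 ± 131 CPM over the stiff ones (SD, n = 4), and the log2 change of 0.29 (SE 0.25) had a 95% interval of -0.24 to 0.82. Pmvk (phosphomevalonate kinase), the member with the smallest p, stood at 24.8, 25.4, 19.5 and 14.8 CPM in soft 1 to 4 and 35.5, 26.96, 45.6 and 14.4 CPM in stiff 1 to 4. Stiff 1 to 3 lay above the soft libraries and stiff 4 below them, and the unadjusted edgeR p was 0.1096. Its log2 change went to 0.28 without stiff 3 and 0.77 without stiff 4. Idi1 (isopentenyl diphosphate isomerase) stood at 37.3, 27.7, 22.2 and 17.03 CPM in soft 1 to 4 and 35.1, 32.03, 46.1 and 23.5 CPM in stiff 1 to 4, and its log2 change was 0.39 (SE 0.28). Stiff 3 was the highest library for it and soft 4 the lowest. Acat2, a cytosolic thiolase that joins acetyl-CoA units, varied most between libraries of all members, by 6.04-fold from the lowest to the highest. It stood at 80.8, 43.4, 38.3 and 13.4 CPM in soft 1 to 4 and 59.9, 80.6, 67.7 and 24.1 CPM in stiff 1 to 4; it was chosen after its values were seen. The log2 change of Acat2 was 0.40 (SE 0.49), and went to 0.11 without soft 4 and 0.87 without soft 1. Fdps (farnesyl diphosphate synthase) had a log2 change of 0.29 (SE 0.30), Mvd (mevalonate diphosphate decarboxylase) 0.38 (SE 0.35) and Mvk (mevalonate kinase) -0.04 (SE 0.41). Mvk was at 10.1, 5.87, 14.8 and 15.3 CPM in soft 1 to 4 and 9.76, 4.595, 17.96 and 12.6 CPM in stiff 1 to 4, with number 2 lowest on both substrates. By library, Fdps was at 55.04, 31.7, 43.5 and 23.1 CPM in soft 1 to 4 and 63.4, 49.7, 49.6 and 25.5 CPM in stiff 1 to 4. It was higher on stiff in each of the 4 same-numbered pairs of libraries, the sole member of which this held (1 of 31, or 3.23%, against 4.27% of all genes), and that share is near the background. Counts of Acat2 are uncertain, since it has a neighbouring paralog, Acat3, and shares 634 bases with the pseudogene Gm20591.

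The enzymes that make squalene and turn it into cholesterol gave estimates closer to 0. Of these 11 genes, 8 were above 0 and 3 below, 0 passed, and the median log2 change was 0.09. Msmo1 (sterol methyl oxidase, ENSMUSG00000031604, chromosome 8 from 64718123 to 64733578) stood at 386, 303, 250.03 and 122 CPM in soft 1 to 4 and 270.3, 331, 329.8 and 154 CPM in stiff 1 to 4. The number 4 libraries again held the lowest levels, soft 1 the highest, and the other libraries of both substrates lay together between 250.03 and 331 CPM. The log2 change of 0.03 (SE 0.32) came with a 95% interval of -0.66 to 0.72. Sc5d (lathosterol desaturase) stood at 141, 101, 83.4 and 50.8 CPM in soft 1 to 4 and 112, 145, 134 and 70.01 CPM in stiff 1 to 4. Its log2 change of 0.30 (SE 0.29) had the smallest p of this branch, 0.318 before adjustment. Ebp, the isomerase that binds emopamil, stood at 12.8, 6.79, 17.00 and 21.3 CPM in soft 1 to 4 and 20.8, 17.7, 15.4 and 15.2 CPM in stiff 1 to 4. Soft 4 was its highest library and soft 2 its lowest, and its log2 change went from 0.25 to 0.02 without soft 2. Fdft1 (squalene synthase), chosen after its values were seen, stood at 155, 109.8, 89.3 and 46.6 CPM in soft 1 to 4 and 139, 115, 123 and 63.3 CPM in stiff 1 to 4. For this gene the log2 change was 0.14 (SE 0.32). The oxidosqualene cyclase Lss had a log2 change of 0.09 (SE 0.30), the demethylase Cyp51 0.07 (SE 0.25), and the squalene epoxidase Sqle, often a rate-limiting step, 0.15 (SE 0.22). Hsd17b7, a sterol ketoreductase, stood between 44.2 and 132 CPM on soft and between 75.4 and 79.5 CPM on stiff. The log2 changes of the remaining enzymes were 0.30 (SE 0.41) for the sterol reductase Tm7sf2, -0.19 (SE 0.29) for the decarboxylating dehydrogenase Nsdhl, -0.04 (SE 0.26) for Hsd17b7 and -0.08 (SE 0.36) for the last reductase Dhcr7. Fdft1 shares 774 bases with Ctsb and Lss shares 11269 with the noncoding gene 4930483K19Rik, and the strand setting of the counting is not given in the sources used here.

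Of the 5 genes that control the pathway, 4 had estimates below 0 and 0 passed, with a median log2 change of -0.12. Insig1 is itself an SREBP target and holds the SREBP-Scap complex in the endoplasmic reticulum (ENSMUSG00000045294, chromosome 5 from 28071412 to 28078662). It stood at 277, 145, 159 and 114 CPM in soft 1 to 4 and 241, 233, 213 and 115 CPM in stiff 1 to 4. Stiff 1 to 3 lay together above soft 2 and 3, soft 1 lay above all of them, and the number 4 libraries were lowest. Its log2 change was 0.21 (SE 0.28), and went to 0.53 without soft 1 and 0.06 without soft 4. The paralog Insig2 stood at 82.3, 99.9, 71.1 and 86.98 CPM in soft 1 to 4 and 77.6, 92.5, 67.2 and 67.2 CPM in stiff 1 to 4. It was lower on stiff in each of the 4 same-numbered pairs, the sole member to be so (3.23%, against 5.68% of all genes), with a log2 change of -0.16 (SE 0.18). Srebf1 stood at 54.4, 38.8, 64.2 and 97.4 CPM in soft 1 to 4 and 59.6, 42.3, 70.98 and 55.9 CPM in stiff 1 to 4. Soft 4, low for most enzymes, was the highest library for Srebf1, and without it the log2 change turned from -0.16 to 0.13. Srebf2 stood at 109, 88.2, 91.4 and 94.4 CPM in soft 1 to 4 and 113, 90.1, 79.6 and 71.1 CPM in stiff 1 to 4, and its log2 change was -0.12 (SE 0.18). The highest Srebf2 level was 1.59 times the lowest, against 6.04 times for Acat2. The escort gene Scap had a log2 change of -0.11 (SE 0.26). Reads of Insig1 may include those of the noncoding gene Gm35223, which spans it.

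Ratios between paralogs do not depend on the scaling of a library, and 3 were tested by a two-sided exact permutation test, in which 4 against 4 libraries cannot give a p below 0.0286. The log2 ratio of Insig1 to Insig2 counts was 0.96 ± 0.62 on soft and 1.35 ± 0.41 on stiff (SD, n = 4 each), with p = 0.314 by the exact test and 0.514 after adjustment over the 3. The log2 ratio of Srebf1 to Srebf2 was -0.66 ± 0.55 on soft and -0.63 ± 0.44 on stiff (SD, n = 4 each), with an exact p of 0.914, adjusted 0.914. The log2 ratio of Scd2 to Scd1 was 2.53 ± 0.49 on soft and 2.24 ± 0.27 on stiff (SD, n = 4 each), with an exact p of 0.343, adjusted 0.514. None passed. Paired by number, which was added after the data were seen, 4 pairs cannot give a two-sided exact p below 0.125. Scd2 to Scd1 was lower on stiff in 4 of 4 pairs, with a mean difference of -0.28 ± 0.23 (SD of the pairs, n = 4), with an exact p of 0.125, the smallest possible, and 0.375 after adjustment over the 3. Insig1 to Insig2 was higher on stiff in 3 of 4 pairs (exact p = 0.25, adjusted 0.375), and Srebf1 to Srebf2 in 3 of 4 (exact p = 0.75, adjusted 0.75). The counts are not divided by gene length, so the ratios compare libraries and do not rank the paralogs. Scd2 to Scd1 fell into a pattern by number: it was 2.19 and 2.02 in soft 1 and 2 and 2.03 and 1.99 in stiff 1 and 2, against 2.995 and 2.903 in soft 3 and 4 and 2.45 and 2.503 in stiff 3 and 4.

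Among the 3 genes of sterol transport, 0 passed. Abca1 exports cholesterol to apolipoproteins and is switched on by the LXR receptors when sterol is plentiful, the opposite setting to that of the SREBP targets (ENSMUSG00000015243, chromosome 4 from 53030789 to 53159988). It stood at 472, 585, 281 and 219.7 CPM in soft 1 to 4 and 429.7, 391, 273 and 247 CPM in stiff 1 to 4. Libraries 1 and 2 were above libraries 3 and 4 on both substrates. At -0.22 (SE 0.29), the log2 change of Abca1 was the lowest of the 31, and it turned to 0.05 without soft 2. Stard4, which carries cholesterol between membranes and is an SREBP target, stood at 95.1, 76.97, 62.1 and 43.4 CPM in soft 1 to 4 and 76.7, 97.6, 92.6 and 62.4 CPM in stiff 1 to 4. The substrates overlapped, with a log2 change of 0.25 (SE 0.23). Npc1, which exports cholesterol from lysosomes, had a log2 change of 0.03 (SE 0.23), and it shares 8982 bases with Rmc1.

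The 5 fatty acid enzymes lay between -0.06 and 0.17 in log2 change, with a median of -0.01, and 0 passed. Scd2, a desaturase that makes monounsaturated fatty acids and is known from fetal tissue and brain (ENSMUSG00000025203, chromosome 19 from 44293676 to 44306864), stood at 1665, 1148, 1439 and 1092 CPM in soft 1 to 4 and 1192, 1230, 1626 and 1096 CPM in stiff 1 to 4. Soft 1, soft 3 and stiff 3 were its high libraries. Between substrates the log2 change was -0.06 (SE 0.19), with a 95% interval of -0.46 to 0.35. Scd1, the paralog that is abundant in liver and fat, stood at 364, 282, 180.4 and 146 CPM in soft 1 to 4 and 292, 309.6, 297 and 193 CPM in stiff 1 to 4. Stiff 1 to 3 lay close together and number 4 was the lowest library within each substrate, though soft 3 lay below stiff 4, and its log2 change was 0.17 (SE 0.26). Acly, which makes cytosolic acetyl-CoA from citrate for both branches, stood at 232, 180.04, 224 and 179 CPM in soft 1 to 4 and 206, 178, 232 and 169 CPM in stiff 1 to 4. Its highest level was 1.38 times its lowest, the smallest such ratio of the members, and its log2 change was -0.05 (SE 0.17). Fasn, the fatty acid synthase, averaged 168 ± 41.2 CPM over the soft libraries and 172 ± 39.2 CPM over the stiff ones, at a log2 change of 0.03 (SE 0.21). Acaca, which makes malonyl-CoA, averaged 65.2 ± 11.7 CPM over the soft libraries and 64.7 ± 11.96 CPM over the stiff ones (SD, n = 4 for both genes), at a log2 change of -0.01 (SE 0.20). Scd1 and Scd2 are similar in sequence, so that reads could be split between them, and Acaca spans the gene Gm11437.

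More of these genes differed between library numbers than between substrates. Library numbers are the last digits of the library codes, and the labels do not say what a number marks. The rest of the code is shared by all soft libraries and differs from that shared by all stiff libraries. The labels do not say what that part marks either, and it cannot be told apart from substrate. In the edgeR fit with substrate and number as terms, whose number term was tested after the data had been seen, 11 of the 31 genes differed among the 4 numbers at an adjusted p under 0.05 (35.5%), against 1070 of the 14059 genes tested (7.61%). They were Acat2, Hmgcs1 and Fdps of the mevalonate branch, Fdft1, Lss, Cyp51, Msmo1 and Sc5d of the sterol branch, and Insig1, Abca1 and Scd1. The edgeR adjusted p of this term was 3.12e-05 for Acat2, 1.21e-04 for Msmo1, 1.77e-04 for Fdft1, 2.76e-04 for Abca1 and 0.00224 for Hmgcs1, and it lay between 0.00135 (Lss) and 0.0137 (Fdps) for the other 6. Cyp51 was at 341, 272, 186 and 136 CPM in soft 1 to 4 and 265, 290.3, 252 and 172 CPM in stiff 1 to 4. Lss was at 111, 74.5, 70.4 and 43.7 CPM in soft 1 to 4 and 97.1, 77.3, 104 and 40.3 CPM in stiff 1 to 4. Both were lowest in the number 4 library of each substrate. The same 11 genes were called under each other scaling and filter run and without robust estimation. Without both libraries numbered 4 the count was 1 of 31 (Abca1), against 3.41% of the genes then tested, and without both libraries of number 1, 2 or 3 it was 10, 11 and 11. Number 4 was singled out after the values were seen. It was the lowest library on both substrates for 18 of the 31 genes, among them 11 of the 18 enzymes of sterol synthesis, against 11.3% of all genes tested, and the highest on both for 0, against 12% of all genes.

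**Figure D3:**
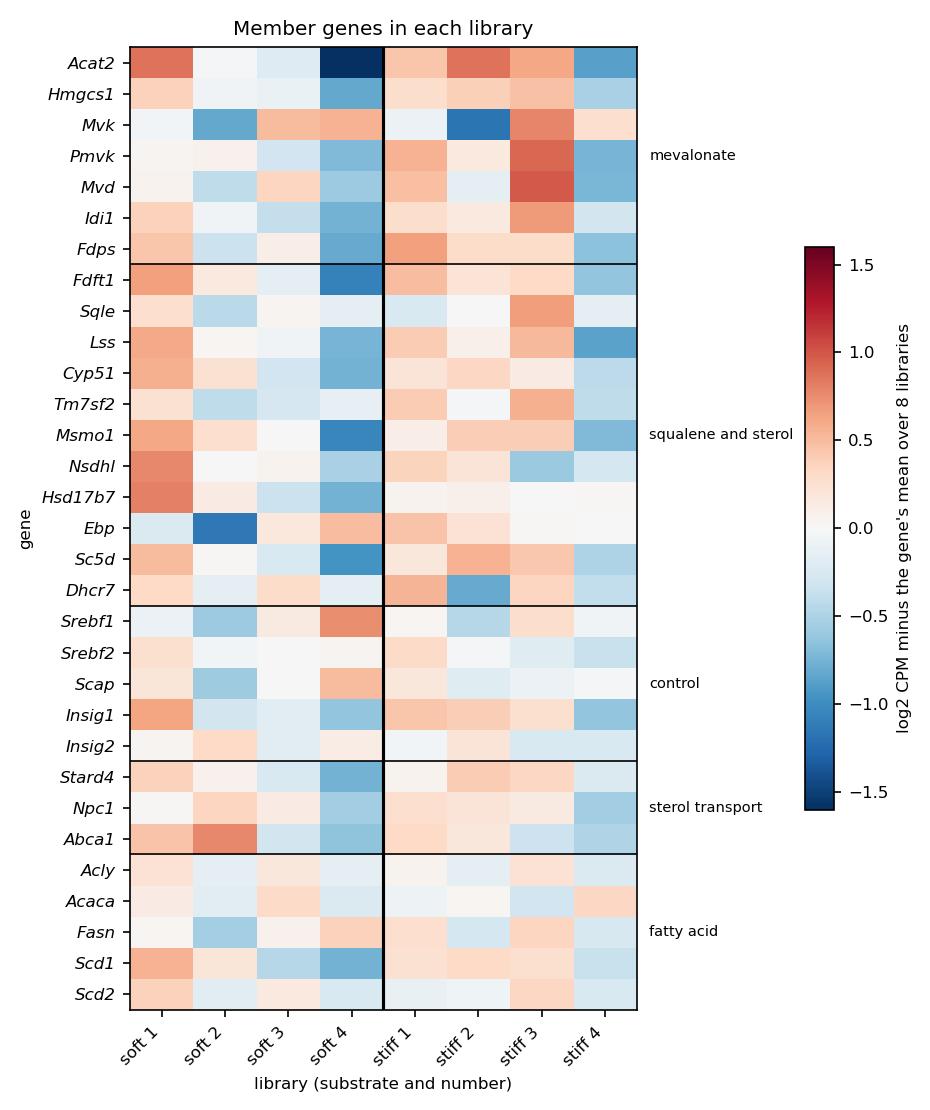
Deviation of each gene (rows, grouped by role) from its mean over the 8 libraries (columns), on the log2 CPM scale, with blue for lower and red for higher. Blue columns at soft 4 and stiff 4 run through most mevalonate and sterol enzymes, while Srebf1, Scap, Mvk and Ebp are red at soft 4.

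The level in the number 4 library was set against the mean of the other 3 libraries of its substrate. For Hmgcs1 this ratio was 0.533 on soft and 0.537 on stiff, and for Msmo1 0.389 on soft and 0.495 on stiff. Fdft1 had 0.395 on soft and 0.505 on stiff, and Sc5d 0.4701 on soft and 0.537 on stiff. Acat2 had the lowest ratios of the members, 0.247 on soft and 0.347 on stiff. Insig1, both a target and a feedback regulator, had 0.592 on soft and 0.503 on stiff, and the exporter Abca1 0.493 on soft and 0.678 on stiff. Among fatty acid enzymes, Scd1 had 0.5297 on soft and 0.645 on stiff, Scd2 0.7704 on soft and 0.812 on stiff, and Acly 0.842 on soft and 0.821 on stiff. The mevalonate and sterol enzymes named so far in this paragraph were all among the genes called by number. Of those not called, Sqle had 0.91 on soft and 0.78 on stiff, and Tm7sf2 0.99 on soft and 0.59 on stiff. Nsdhl had 0.56 on soft and 0.79 on stiff, and Pmvk 0.64 on soft and 0.40 on stiff. On soft the ratio was above 1 for 6 members, Mvk, Ebp, Srebf1, Scap, Insig2 and Fasn. On stiff it was above 1 for Mvk (1.17) and Acaca (1.36). Srebf1 had 1.86 on soft and 0.969 on stiff, and Fasn 1.403 on soft and 0.764 on stiff. The median standard deviation between libraries of a substrate, on the log2 CPM scale, was 0.53 for the 18 sterol synthesis enzymes, 0.34 for the controllers and 0.27 for the fatty acid enzymes, against 0.41 for all genes tested.

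**Figure D4:**
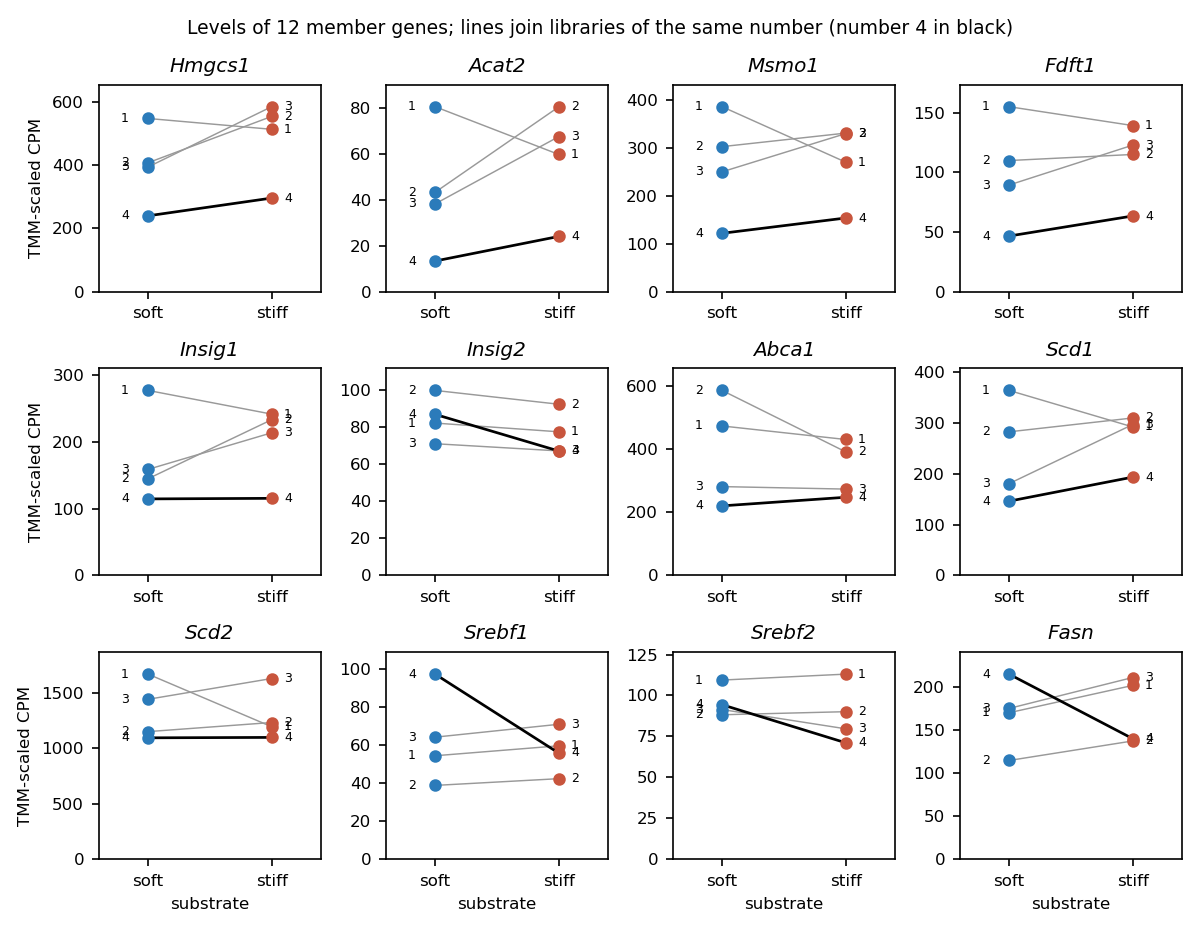
Levels of 12 member genes in TMM-scaled CPM (vertical axes from 0) on soft and stiff, with a point for each library, its number beside it, and lines joining libraries of the same number. The black line (number 4) lies lowest for Hmgcs1, Acat2, Msmo1, Fdft1, Insig1, Abca1, Scd1 and Scd2, and starts highest on soft for Srebf1 and Fasn.

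Averaged over the 18 sterol synthesis enzymes, the deviation from the mean of the 8 libraries was 0.40, -0.16, -0.05 and -0.59 in soft 1 to 4 and 0.31, 0.10, 0.42 and -0.44 in stiff 1 to 4 on the log2 CPM scale. The 3 transport genes had 0.29, 0.39, -0.13 and -0.65 in soft 1 to 4 and 0.22, 0.27, 0.05 and -0.42 in stiff 1 to 4. Like the sterol synthesis enzymes, the transport genes were lowest in soft 4 and stiff 4, but the other libraries did not all match. Where transport was highest (0.39), sterol synthesis was at -0.16, and where sterol synthesis was highest (0.42), transport was at 0.05. The 5 fatty acid enzymes moved less, with 0.26, -0.17, 0.05 and -0.20 in soft 1 to 4 and 0.07, -0.03, 0.17 and -0.15 in stiff 1 to 4. The mean of the controllers differed from that of the enzymes in soft 4, with 0.21, -0.24, -0.04 and 0.16 in soft 1 to 4 and 0.18, -0.01, 0.00 and -0.26 in stiff 1 to 4. By gene, the soft 4 deviations were 0.74 for Srebf1, 0.51 for Scap, 0.12 for Insig2, 0.05 for Srebf2 and -0.64 for Insig1. Insig1 was thus low with the enzymes. Soft 4 and stiff 4 also had the highest sums of the 6 cardiomyocyte markers, 36216 and 30318 CPM, against 19134 to 24525 CPM in the other 6 libraries. In soft 4 each of the 6 markers was at its highest soft level. In stiff 4 Nppa was at its lowest stiff level, 5004 CPM against 5476 to 7049 CPM, and the others were at their highest. None of these 6 markers was at 0. The fibroblast sum was highest in soft 4 (11271 CPM) and soft 3 (10719 CPM) and stood at 8232 CPM in stiff 4. Their part in the difference between numbers was not tested.

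**Figure D5:**
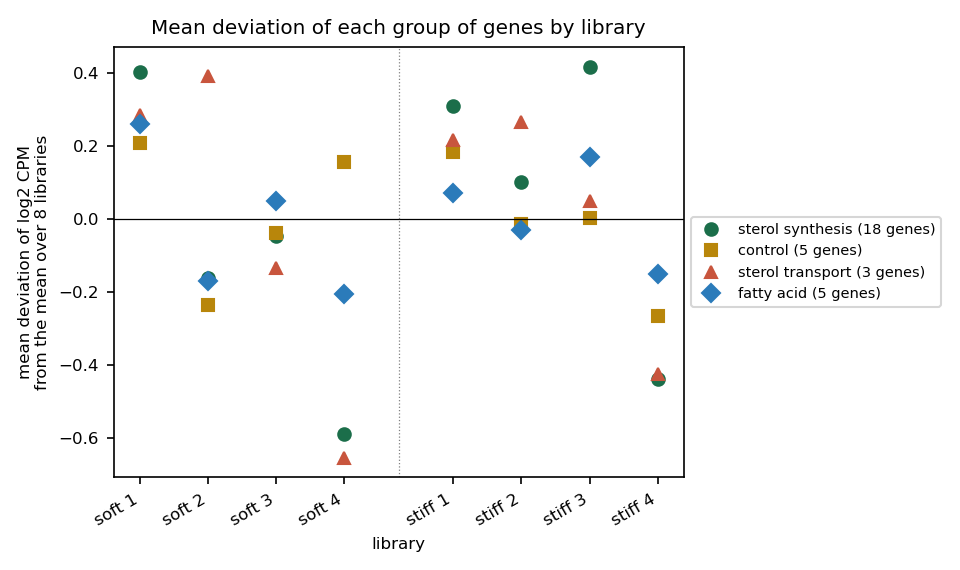
Mean deviation of log2 CPM from the mean over the 8 libraries (vertical axis) for 4 groups of member genes in each library (horizontal axis). Sterol synthesis (circles) and transport (triangles) are lowest in soft 4 and stiff 4. The mean of the control genes (squares) is above 0 in soft 4, although Insig1 among them is below 0 there.

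The other genes of the pathway were read from a list of 35 that did not overlap the members, and 35 of them were tested. Of these, 0 rose and 0 fell on stiff, 20 had estimates above 0 and 15 below, and the median log2 change was 0.02. Among 10 genes of uptake, storage and efflux, 6 were above 0, and the exporter Abcg1 had a log2 change of -0.38 (SE 0.31). Among 12 genes of fatty acid and lipid synthesis, 6 were above 0; the carboxylase Acacb had -0.22 (SE 0.29) and Thrsp, which stood at a mean of 0.811 CPM for soft and 1.36 CPM for stiff, had 0.74 (SE 1.297). Among 10 controllers, 6 were above 0; the LXR gene Nr1h2 had -0.45 (SE 0.29) and the NF-Y subunit gene Nfya 0.20 (SE 0.21). Among library numbers, 1 of the 35 differed (2.86%, against 7.61% of all genes tested; 1 to 4 genes under the other scalings and filters): Lipa, the lysosomal lipase that frees cholesterol from its esters. It stood at 143, 146, 96.6 and 77.9 CPM in soft 1 to 4 and 142, 158, 70.4 and 78.6 CPM in stiff 1 to 4. The edgeR adjusted p of the number term was 0.001401, and libraries 1 and 2 were its high libraries on both substrates. Number 4 was the lowest library on both substrates for 11 of the 35 (31.4%), against 11.3% of all genes tested. It was the highest on both for 2 of the 35 (5.71%), against 12% of all genes.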

How the data were processed

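RNA of 8 libraries (4 soft, 4 stiff) was counted per gene. The authors deposited raw read counts for coding genes, and the submitters' processing notes list the build GRCm38 and the programs HTSeq 0.6.1, TopHat2 2.0.14, TopHat, Bowtie2, FastQC 0.11.2, edgeR, DESeq2 and Cufflinks, without their roles; how reads were filtered, whether strand was used and which annotation release served is not given in the sources. A second table, of noncoding genes, was not used. Symbols were matched for 29150 of 29844 genes, and rows without one hold 0.106% of counts. Positions are those of RefSeq on GRCm38.p6.

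The counts were tested with edgeR 4.0.16 under R 4.3.3, and with DESeq2 1.42.0 and limma-voom (limma 3.58.1) as alternatives. The filter was filterByExpr (minimum count 10, minimum total 15), the scaling TMM, and the test a robust quasi-likelihood F test; p-values were adjusted by Benjamini-Hochberg over all 14059 genes, with calls at an adjusted p under 0.05. Log2 CPM used a prior count of 2 and paralog ratios 0.5. The pipeline was run on simulated counts with 200 changed genes, and how many of them it recovered is not reported here. No 2 libraries agreed within sampling noise (chi-square per degree of freedom 44.8 to 224 over 28 pairs).

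The members and lists were chosen with earlier results of these data known. Genes printed with every library were, by rule, the highest-level member and the 2 with the smallest p of each role and both members of 3 paralog pairs; Acat2, Fdft1, Fdps, Mvk, Cyp51, Lss and Lipa were added after their values were seen; of each of the 4 lists of other pathway genes, the 2 with the smallest p were chosen, and some of these are not reported here. Levels are not divided by gene length and do not rank genes. Alternatives were other scalings, filters, those tools, a fit without robust estimation, each library left out, and a replicate block. Pairing was checked on deviations of log2 CPM from the substrate means over 14059 genes. Same-numbered libraries correlated at 0.10, 0.18, 0.13 and 0.31 for numbers 1 to 4, each over 0.1. On that ground the numbers were treated as pairs in the fits with a block and in the paired ratio tests. The main edgeR test and the first ratio tests had no term for number, so their estimates, spreads and p-values are unpaired. Number 1 was the weakest pair: soft 1 correlated slightly more with stiff 2 (0.11) and stiff 1 with soft 2 (0.13) than with each other. The pairing rests on these data and the last digit of the codes.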

Additional observations from a re-analysis of the deposited data

Results flagged for a closer look

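Scd1 in stiff 4 stood apart from the other stiff libraries, at 193 CPM against 292 to 309.6 CPM; its gap to the nearest library was 0.849 of the range of the 4, above Dixon's 95% critical value. It was the sole such case in 70 groups of 4 values examined (31 genes, 3 ratios and the mean deviation of the members, on each substrate), and chance alone gives about 1 in 20.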

How the results depend on the processing

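No member was called between substrates under any of the 20 alternatives run, and the replicate block changed no call of edgeR (0 genes); members at an unadjusted p under 0.05 went from 0 to 2 with the block, and all genes from 130 to 360. The exception among all genes was limma-voom with the block, added after the data were seen, which called 8, none of them a member; the cause was not tested. Members with an estimate above 0 numbered 15 to 25 with 1 library left out, and their median ran from -0.0064 to 0.28. Genes that differ among numbers went from 1070 to 480, and members from 11 to 1, without both libraries numbered 4, where fewer libraries and numbers remain. Of 780 recomputed log2 fold changes of 39 named genes, 732 kept their sign. Hsd17b7 turned to 0.080 with limma-voom, 0.082 with the block, 0.040 with limma-voom and the block and 0.092 with DESeq2 and the block. Without both libraries numbered 4, Mvk turned to 0.077, Msmo1 to -0.0066, Srebf1 to 0.14 and Scap to 0.073. The causes were not tested. With 1 library left out, the log2 fold changes that changed sign ran over Mvk -0.36 to 0.23, Fdft1 -0.095 to 0.43, Sqle -0.092 to 0.28, Lss -0.091 to 0.34, Cyp51 -0.11 to 0.31, Msmo1 -0.20 to 0.27, Nsdhl -0.35 to 0.099, Hsd17b7 -0.23 to 0.32, Dhcr7 -0.31 to 0.12, Srebf1 -0.33 to 0.13, Scap -0.27 to 0.074, Npc1 -0.12 to 0.18, Abca1 -0.41 to 0.052, Acly -0.15 to 0.014, Acaca -0.14 to 0.097, Fasn -0.11 to 0.18, Scd1 -0.0083 to 0.43, Scd2 -0.19 to 0.068 and Acacb -0.49 to 0.040, and the difference in the log2 ratio of Srebf1 to Srebf2 over -0.14 to 0.27. With 4 libraries a substrate, differences of members under about 1.5-fold without the block, or 1.27-fold with it, were mostly not detectable even before adjustment. Larger ones could be missed too, since a call needs an adjusted p under 0.05.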
